A study of Mus musculus with 8 samples.

Results

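The 10 genes described here are Nfatc1, Nfatc2, Nfatc3, Nfat5, Rcan1, Ppp3ca, Ppp3cb, Orai1, Stim1 and Stim2. All but Nfat5 encode parts or regulators of the route from calcium entry through calcineurin to NFAT transcription factors in T cells. Nfat5 encodes an NFAT relative that does not bind calcineurin. The genes were taken by symbol, 10 of 55665 gene rows, and all 10 were among the 16642 genes with enough counts to test. The samples were natural regulatory T (nTreg) cells, the thymus-derived regulatory CD4 T cells, obtained from mouse spleen and lymph nodes, sorted as CD4+GFP+ and cultured ex vivo. All groups shared the RosaCas9/+ Foxp3gfp genotype, that is, 1 Cas9 allele at the Rosa locus and a green fluorescent reporter of Foxp3. Cells carried either the control guide RNA sgNC or sgFoxp3, which targets Foxp3, the master factor of the regulatory lineage. Each was given DPBS buffer alone (0 h) or anti-CD3/anti-CD28 antibodies, which restimulate the T cell receptor (TCR), for 3 h, which made 4 groups of 2 stranded RNA-seq libraries, 8 in all. The labels do not say whether the libraries of a group came from separate cultures or animals, so p-values reflect only how these libraries vary, which may be technical variation. The age of the mice and the share of cells edited were not given in the sources used here.

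When the TCR is engaged, inositol trisphosphate empties calcium from the endoplasmic reticulum, and the STIM proteins sense that loss and open ORAI channels in the plasma membrane. The calcium that enters binds calmodulin and activates the phosphatase calcineurin, which strips phosphates from the NFATc proteins so that they move to the nucleus. In T cells NFAT drives cytokine genes together with AP-1, and in regulatory T cells it can also bind DNA together with Foxp3. RCAN1 restrains calcineurin and is itself switched on by NFAT. NFAT5 shares the DNA-binding fold but does not bind calcineurin, and it is known for the response to high salt.

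The targeted gene was measured first. Foxp3 stood at 763.9 and 775.9 CPM (counts scaled to a common, TMM-adjusted library size) in unstimulated control-guide cells and at 678.8 and 673.4 CPM in stimulated ones. The corresponding Foxp3-guide values were 87.6 and 88.5 CPM, then 76.1 and 71.8 CPM. The transcript thus lay 8.75-fold lower at 0 h and 9.15-fold lower at 3 h in the libraries labelled with the Foxp3 guide, and its protein was not measured. Library totals ran from 38729009 to 48626432 expected counts with the control guide and from 55865290 to 94807362 with the Foxp3 guide, so depth differed with the guide. Ribosomal protein genes made up 5.34% to 5.76% of the control-guide libraries, against 6.45% to 7.38% of those with the Foxp3 guide. The T cell markers Cd3e and Cd4 averaged at least 131.6 and 141.0 CPM in every group. With Foxp3, Il2ra, Ikzf2 and Ctla4 they formed the T and Treg list, whose summed CPM was lower with the Foxp3 guide. At 0 h it was 3945 to 3963 with the control guide and 1853 to 1888 with the Foxp3 guide. At 3 h it was 7313 to 7516 and 3933 to 3955. Of these 6 genes, 1 was called higher and 4 lower at 0 h (34.2% and 29.1% of all genes), and 2 and 3 at 3 h (30.7% and 30.8%). Foxp3, the targeted gene, is part of these sums and among the lower genes at both times, so they do not measure T cell content. The summed CPM of the listed markers of other cell types was 0.669 to 4.61 for B cells, 6.23 to 8.71 for CD8 T cells, 2.02 to 9.43 for NK cells, 0.999 to 4.37 for myeloid cells, 0.364 to 0.961 for stromal cells and 0 to 0.0873 for erythroid cells. The NK sum was highest at 3 h with the control guide (9.37 to 9.43), through Eomes, and the NK gene Ncr1 was at 0 in 3 of the 4 groups. The NK marker Klrb1c instead averaged 1.05 CPM at 0 h with the Foxp3 guide, against 0.0325 CPM with the control guide (called higher, adjusted p = 4.9e-09). The myeloid sum was highest at 3 h with the Foxp3 guide (4.27 to 4.37, against 0.999 to 1.11 with the control guide), through Itgam, and Csf1r was at 0 in both 0 h groups. The part of these markers in the results below was not tested.

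Per transcript length, on the TPM scale (transcript abundance scaled to the same total in every library), the order of the 10 genes changed with stimulation. At 0 h with the control guide Nfatc3 led at 102.0 ± 5.35 TPM (SD, n = 2), followed by Ppp3cb at 77.6 and Nfat5 at 76.7, whose libraries overlapped. Nfatc2 at 53.7 and Stim2 at 51.0 overlapped as well, and so did Stim1 at 48.2 and Ppp3ca at 46.9. Nfatc1 at 40.8, Orai1 at 27.9 and Rcan1 at 9.53 TPM closed the order, each apart from its neighbour. At 3 h with the control guide Orai1 led at 251.9 ± 2.96 TPM, with libraries overlapping those of Nfat5 at 241.7 ± 42.7, and Nfatc1 was next at 94.8 ± 3.41. Nfatc2, at 17.5, and Ppp3ca, at 16.8 TPM, were now lowest. With the Foxp3 guide Nfatc3 led at 0 h (108.7 ± 1.04 TPM) and Orai1 at 3 h (232.7 ± 1.34 TPM), where Nfatc1 at 138.0 ± 4.12 stood above Nfat5 at 116.1 ± 15.4. No neighbours overlapped in either Foxp3-guide group.

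**Figure D1:**
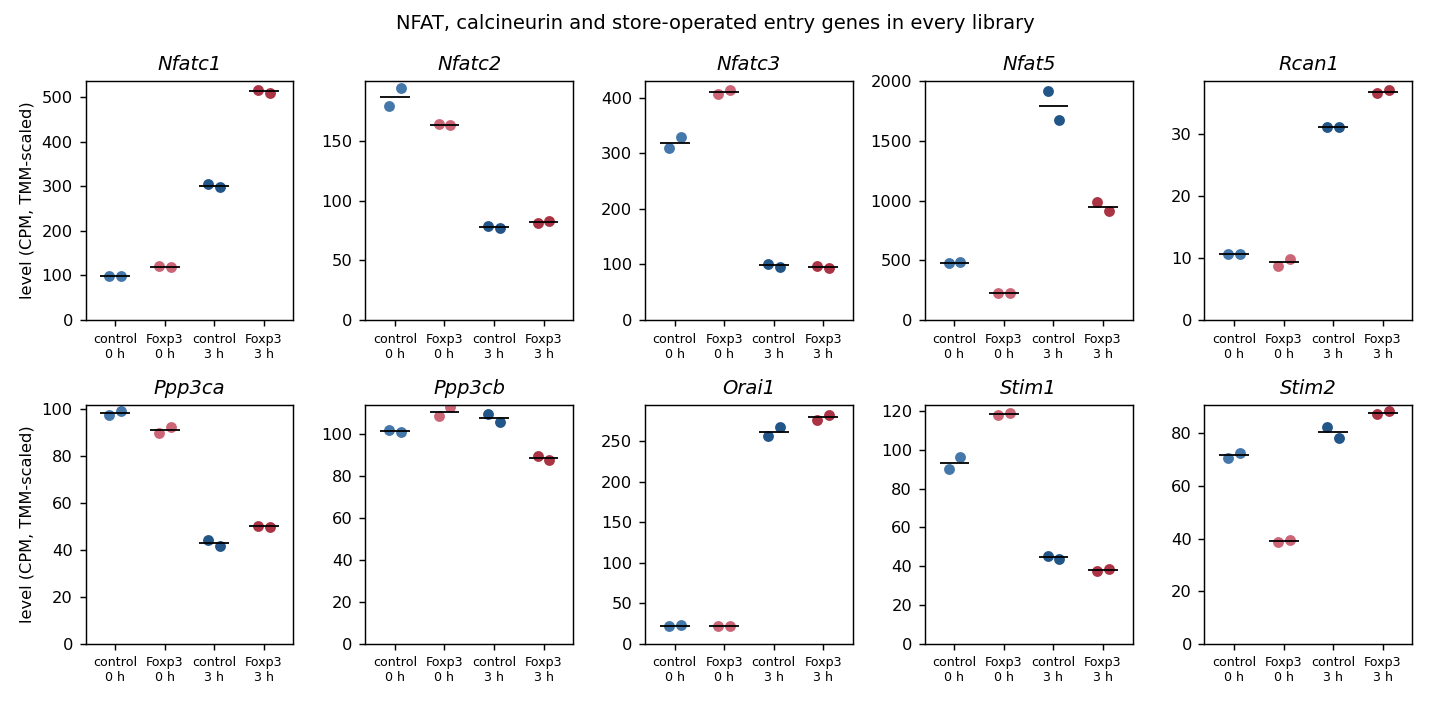
Each panel plots 1 gene's level in CPM (linear axis from 0) in the 8 libraries, as points, with the group mean as a line, for the control guide and the Foxp3 guide at 0 h and 3 h. Orai1 moves from 21.4 to 22.7 CPM in the 4 unstimulated libraries to 256.6 to 282.2 at 3 h, and the Nfat5 panel shows lower Foxp3-guide points at both times.

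The design gave 5 comparisons, each tested with edgeR's quasi-likelihood test on all 8 libraries, with Benjamini-Hochberg adjustment over the 16642 genes and a call at an adjusted p below 0.05. The guide effect sets the Foxp3 guide against the control guide at 0 h or at 3 h, the TCR effect sets 3 h against 0 h for each guide, and the last comparison is the difference between those TCR effects. At 0 h, 4 of the 10 genes were higher with the Foxp3 guide, beside 34.2% of all genes tested, and 5 were lower, beside 29.1%. At 3 h, 5 were higher (30.7% of all genes) and 3 lower (30.8%). TCR stimulation raised 6 genes with the control guide (40.9% of all genes rose) and lowered 4 (40.9% fell). With the Foxp3 guide it raised 5 (40.8%) and lowered 5 (44.5%). The TCR effect was higher with the Foxp3 guide for 5 genes (17.8% of all genes) and lower for 3 (27%). With so many genes called in these libraries, the number of members called says little, and the sizes and directions below carry the description. The median log2 change of the 10 genes was -0.07, 0.08, 0.12, 0.42 and 0.21 in the 5 comparisons in that order, beside 0.02, -0.01, -0.01, -0.07 and -0.09 over all genes tested. Comparisons that share a group share its libraries, so their values are given side by side and not as independent results. In bulk RNA, fewer cells expressing a gene and less RNA per cell cannot be told apart.

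Directions of small changes depended on the scale. On log2(TPM+1) values the median of all genes moved to -0.15 for the guide effect at 0 h, -0.12 for that at 3 h, and -0.20 and -0.18 for the TCR effects with the control and Foxp3 guides. Upper-quartile scaling moved the medians of the TCR effects to -0.25 and -0.24. The share of all called genes that were higher was 54.0% at 0 h and 49.9% at 3 h for the guide effects by TMM, against 27.9% and 27.4% on the TPM scale. For the TCR effect with the control guide it was 49.99% against 37.3%, and for the difference 39.7% against 51.5% on the TPM scale and 50.2% with DESeq2. On the TPM scale no member was called higher at 0 h and 7 were called lower, so members are described below with that scale wherever it ends a call or turns a sign.

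STIM1 and STIM2 are the calcium sensors of the endoplasmic reticulum, and STIM2 responds to smaller losses of stored calcium. Their genes went in opposite directions with the Foxp3 guide in unstimulated cells, although the rise of Stim1 was not called on the TPM scale. Stim2 (ENSMUSG00000039156.19; GRCm38 chromosome 5, 53998499 to 54121057, plus strand) stood at 70.7 and 72.7 CPM in control-guide cells and at 38.5 and 39.6 CPM with the Foxp3 guide at 0 h. At 3 h it stood at 82.6 and 78.2 CPM in control-guide cells and at 87.3 and 88.4 CPM with the Foxp3 guide. The unstimulated Foxp3-guide libraries were thus the low pair, apart from the 6 others. The guide effect at 0 h was -0.88 ± 0.043 (log2 change ± SE; adjusted p = 6.5e-15), a level 1.84-fold lower. TCR stimulation then raised Stim2 by 1.17 ± 0.042, or 2.25-fold, with the Foxp3 guide (adjusted p = 1.6e-18), and by 0.73 on the TPM scale. With the control guide its TCR effect was 0.17 ± 0.042 by TMM (adjusted p = 0.0010), but -0.07 with upper-quartile scaling and -0.34 on the TPM scale (-0.14 relative to the median of all genes). The difference between the TCR effects, 1.004 ± 0.060 (adjusted p = 1.1e-12), was the largest of the 10 genes, and it was 1.07 both on the TPM scale and with upper-quartile scaling. The guide effect at 3 h was 0.13 ± 0.041 (adjusted p = 0.0097) by TMM and -0.02 on the TPM scale, and it was 0.09 and not called (adjusted p = 0.12) without control 3 h replicate 2.

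Stim1 (ENSMUSG00000030987.5; chromosome 7, 102267806 to 102437319, plus strand) stood at 90.3 and 96.5 CPM in control-guide cells and 118.2 and 119.2 CPM with the Foxp3 guide at 0 h. At 3 h it had fallen in both, to 45.3 and 43.9 CPM in control-guide cells and to 37.5 and 38.6 CPM with the Foxp3 guide, with no overlap between any of the 4 groups. The Foxp3-guide pair was therefore highest before stimulation and lowest after it. The TCR effect was -1.07 ± 0.044 in control-guide cells and -1.64 ± 0.043 with the Foxp3 guide, and the difference was -0.57 ± 0.061 (adjusted p = 3.7e-08). At 3 h the guide effect was -0.23 ± 0.046 (adjusted p = 0.00015). At 0 h it was 0.34 ± 0.041 (adjusted p = 7.1e-08) by TMM but 0.09 and not called on the TPM scale (adjusted p = 0.14), or 0.25 relative to the median of all genes there. Stim1 made up 48.6% ± 0.479 (SD, n = 2) of the summed TPM of both STIM genes in control-guide cells at 0 h and 68.7% ± 0.194 in Foxp3-guide cells, and these shares became 31.2% ± 1.17 and 26.9% ± 0.400 at 3 h.

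ORAI1 forms the pore of the calcium-release-activated calcium channel, and its gene showed the largest response to TCR stimulation of the 10 with either guide. Orai1 (ENSMUSG00000049686.14; chromosome 5, 123015074 to 123030456, plus strand) stood at 21.8 and 22.7 CPM in control-guide cells and at 21.4 and 21.9 CPM with the Foxp3 guide at 0 h. After 3 h it stood at 256.6 and 267.7 CPM and at 276.9 and 282.2 CPM. Stimulation raised it by 3.56 ± 0.045 (11.8-fold; adjusted p = 1.7e-27) in control-guide cells and 3.69 ± 0.043 (12.9-fold; adjusted p = 1.8e-28) with the Foxp3 guide. Their difference of 0.13 ± 0.061 did not pass the test (adjusted p = 0.080), although it was called under both other scalings (0.20 with RLE and with upper-quartile scaling), with DESeq2 (0.20), on the TPM scale (0.23), and without control 3 h replicate 2 (0.16) or Foxp3-guide 3 h replicate 2 (0.18). At 0 h the guides overlapped and the guide effect of -0.04 ± 0.049 did not pass (adjusted p = 0.49), though it was called lower with upper-quartile scaling (-0.12) and on the TPM scale (-0.34). At 3 h the guide effect of 0.09 ± 0.037 was close to the threshold (adjusted p = 0.031), lost its call without control 3 h replicate 1 (0.06) or Foxp3-guide 3 h replicate 1 (0.11), and was -0.11 on the TPM scale.

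Set against its relatives, Orai1 went from the least abundant ORAI transcript in unstimulated control-guide cells to the most abundant after stimulation. It made up 18.8% of the summed ORAI TPM in control-guide cells at 0 h and 87.5% at 3 h, and 13.3% and 83.9% in Foxp3-guide cells. Orai2, whose product is known to limit the current through ORAI channels in T cells, made up 58.4% and 73.4% at 0 h with the control and Foxp3 guides, and 6.58% and 11.7% at 3 h. Orai2 transcript was higher with the Foxp3 guide at both times, by 0.74 ± 0.036 at 0 h and 0.99 ± 0.041 at 3 h. At 0 h with the Foxp3 guide the shares of Orai1 and Orai3 were alike, at 13.3% each. The summed ORAI level rose from 148.9 ± 4.48 to 287.8 ± 2.60 TPM in control-guide cells and from 164.2 ± 1.94 to 277.5 ± 2.47 TPM with the Foxp3 guide. The summed STIM level instead went from 99.1 ± 2.79 to 58.4 ± 3.86 TPM and from 74.9 ± 0.778 to 54.2 ± 0.884 TPM.

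**Figure D2:**
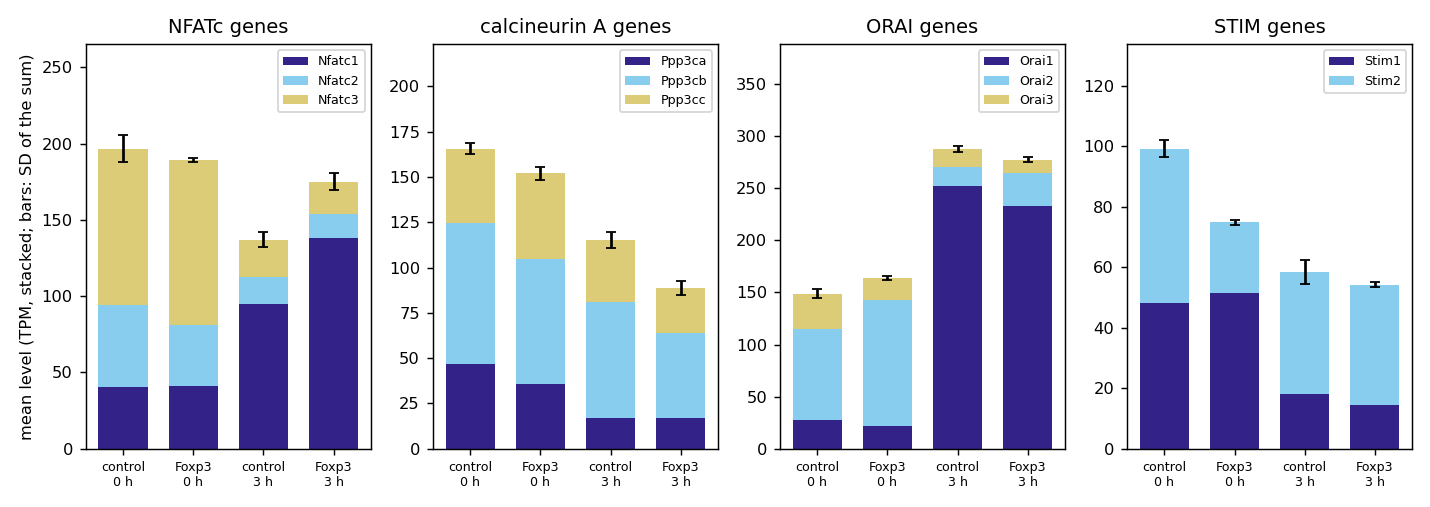
Bars stack the mean TPM of each gene of the NFATc, calcineurin A, ORAI and STIM families (n = 2 libraries per group, axes from 0), with the SD of the summed level as an error bar. At 3 h Nfatc1 and Orai1 fill most of their families (69.1% to 78.8% and 83.9% to 87.5%), and the Stim1 part is widest at 0 h with the Foxp3 guide (68.7%).

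Ppp3ca and Ppp3cb encode the alpha and beta forms of the catalytic A subunit of calcineurin. Ppp3ca (ENSMUSG00000028161.17; chromosome 3, 136670124 to 136937727, plus strand) stood at 97.4 and 99.1 CPM with the control guide at 0 h and at 44.4 and 41.5 CPM at 3 h. With the Foxp3 guide it stood at 90.1 and 92.4 CPM at 0 h and at 50.5 and 49.7 CPM at 3 h. Stimulation changed it by -1.19 ± 0.044 and -0.87 ± 0.042 with the control and Foxp3 guides, so Ppp3ca fell by less with the Foxp3 guide (difference 0.33 ± 0.060, adjusted p = 8.7e-05). The guide effect by TMM was small at both times and of opposite sign. At 0 h it was -0.11 ± 0.041 (adjusted p = 0.024), and this call was lost without any 1 of the 4 libraries compared (-0.11 and -0.09 without control replicates 1 and 2, -0.08 and -0.11 without Foxp3-guide replicates 1 and 2). It was larger, and called, with RLE (-0.165; adjusted p = 0.0012) and upper-quartile scaling (-0.19; adjusted p = 0.00022) and on the TPM scale (-0.37, or -0.22 relative to the median of all genes; adjusted p = 0.00074 by limma). At 3 h it was 0.22 ± 0.045 (adjusted p = 0.00015) by TMM and 0.04 with no call on the TPM scale.

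Ppp3cb (ENSMUSG00000021816.11; chromosome 14, 20499364 to 20546573, minus strand) varied least of the 10, with group means spanning 0.32 on the log2 CPM scale. In control-guide cells it stood at 101.9 and 101.2 CPM unstimulated and 109.5 and 105.8 CPM stimulated, and in Foxp3-guide cells at 108.8 and 112.8 CPM unstimulated and 89.8 and 87.5 CPM stimulated. In CPM the Foxp3-guide libraries at 3 h were the low pair and the only group below the unstimulated controls. In TPM they were again the low pair (mean 46.6), but every other group lay below the unstimulated controls (77.6). Stimulated controls averaged 64.4 TPM and unstimulated Foxp3-guide cells 68.6 TPM. Its guide effect at 3 h was -0.28 ± 0.038 (adjusted p = 8.1e-07), its TCR effect with the Foxp3 guide -0.32 ± 0.038 (adjusted p = 2.3e-08), and the difference between the TCR effects -0.41 ± 0.054 (adjusted p = 1.1e-06). On the TPM scale these were -0.46, -0.55 and -0.28. The last was called there (adjusted p = 0.020 by limma), but not on that scale without a gene filter (adjusted p = 0.051 by limma). The TCR effect with the control guide, 0.08 ± 0.039, sat at the threshold (adjusted p = 0.0497) and lost its call without either control replicate at 0 h (0.08 and 0.07), control 3 h replicate 1 (0.06), either Foxp3-guide replicate at 0 h (0.08 and 0.08), or Foxp3-guide 3 h replicate 2 (0.06). It was -0.15 with upper-quartile scaling and -0.27 on the TPM scale. The guide effect at 0 h was 0.13 ± 0.038 (adjusted p = 0.0058) by TMM, 0.07 and not called by RLE scaling, -0.18 on the TPM scale, and 0.11 with no call without Foxp3-guide 0 h replicate 2. Ppp3cb remained the most abundant of the 3 A-subunit transcripts by mean TPM in every group, with 45.1% to 55.9% of their sum, while Ppp3ca went from 28.3% to 14.6% in control-guide cells and from 23.7% to 19.4% with the Foxp3 guide.

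RCAN1 binds calcineurin and inhibits it. Its gene has alternative first exons, and transcription from the downstream one is the part known to answer to NFAT. For that reason the bases before both start sites are shown with the core letters of an NFAT site, GGAAA, or its reverse complement TTTCC, and of an AP-1 site, TGANTCA, in capitals on either strand. Those before the Orai1 start are shown beside them, since Orai1 had the largest TCR response. Each run covers the 250 bases upstream of a RefSeq start (GRCm38.p6) and is written 5′ to 3′ in the direction of transcription. They lie at chr16:92466170-92466419 (minus strand) for the upstream Rcan1 start, chr16:92400079-92400328 (minus strand) for the downstream Rcan1 start and chr5:123014824-123015073 (plus strand) for Orai1.
Rcan1 upstream start: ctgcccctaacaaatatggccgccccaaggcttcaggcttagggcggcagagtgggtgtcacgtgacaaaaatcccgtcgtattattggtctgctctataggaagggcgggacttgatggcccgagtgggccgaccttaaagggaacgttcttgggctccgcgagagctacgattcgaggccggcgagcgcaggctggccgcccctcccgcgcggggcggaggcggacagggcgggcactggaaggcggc
Rcan1 downstream start: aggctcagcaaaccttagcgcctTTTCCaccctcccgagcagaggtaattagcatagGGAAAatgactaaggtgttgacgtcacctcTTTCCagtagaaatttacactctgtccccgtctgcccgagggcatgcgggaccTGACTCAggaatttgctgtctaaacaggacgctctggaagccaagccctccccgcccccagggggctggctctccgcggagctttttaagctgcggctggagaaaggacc
Orai1: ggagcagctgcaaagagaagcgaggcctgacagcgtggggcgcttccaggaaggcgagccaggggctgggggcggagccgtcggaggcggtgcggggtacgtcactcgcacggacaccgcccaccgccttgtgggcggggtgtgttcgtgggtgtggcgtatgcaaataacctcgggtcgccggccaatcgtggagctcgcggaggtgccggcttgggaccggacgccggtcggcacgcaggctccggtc
The downstream Rcan1 window held 3 GGAAA matches and 1 AP-1 match, which did not overlap, and the upstream Rcan1 and the Orai1 windows held 0 of either. Over 32851 windows of the same length, 55.6% held at least 1 GGAAA on either strand, 6.39% held 3 or more, and 6.75% held an AP-1 match. Starts were found for 8 of the 10 genes. The Nfatc2 windows held 3 and 1 GGAAA matches, Ppp3cb 3, Nfat5 2, Nfatc3 1 and 0, and Stim1 and Stim2 0, and none of these held an AP-1 match. A match is a description of letters and does not show that a factor bound there.

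Rcan1 (ENSMUSG00000022951.16; chromosome 16, 92391953 to 92470867, minus strand) stood at 10.6 and 10.6 CPM in control-guide cells and at 8.73 and 9.88 CPM with the Foxp3 guide at 0 h. At 3 h it stood at 31.1 and 31.0 CPM in control-guide cells and at 36.5 and 37.1 CPM with the Foxp3 guide. The 4 groups did not overlap, with the Foxp3-guide pair lowest at 0 h and highest at 3 h. With stimulation Rcan1 rose by 1.55 ± 0.062 (2.93-fold) in control-guide cells and 1.98 ± 0.057 (3.96-fold) with the Foxp3 guide, and the difference was 0.43 ± 0.086 (adjusted p = 0.00021). The guide effect was 0.25 ± 0.052 at 3 h (adjusted p = 0.00025) by TMM but 0.07 with no call on the TPM scale. At 0 h it was -0.19 ± 0.068 (adjusted p = 0.021), a call lost without control replicate 1 (-0.18) or 2 (-0.18) or Foxp3-guide replicate 1 (-0.09), while on the TPM scale it was -0.40 and called (-0.25 relative to the median of all genes; adjusted p = 0.0022 by limma). Counts are per gene, so they do not say which start site was used. The gene's counts per TPM, relative to all genes of a library, had group means of 0.974 to 0.996 of the unstimulated control level. Single libraries, the unstimulated controls included, ran from 0.959 to 1.037. A change in transcript length would move this measure, but a change of start site between forms of like length would not.

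The 3 NFATc genes of the set went opposite ways with stimulation, and both the rise of Nfatc1 and the fall of Nfatc3 were larger with the Foxp3 guide by the test of the difference. NFATc2 and NFATc3 are the members kept in the cytoplasm of resting T cells, ready for calcineurin, while Nfatc1 is known to be induced on activation and to raise its own transcription.

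Nfatc1 (ENSMUSG00000033016.16; chromosome 18, 80606205 to 80713071, minus strand) stood at 98.5 and 99.6 CPM in control-guide cells and at 120.3 and 118.1 CPM with the Foxp3 guide at 0 h. The stimulated libraries stood at 304.8 and 298.0 CPM in control-guide cells and at 514.7 and 509.5 CPM with the Foxp3 guide, and no groups overlapped. The TCR effect was 1.61 ± 0.039 (3.04-fold) in control-guide cells and 2.10 ± 0.038 (4.29-fold) with the Foxp3 guide, a difference of 0.50 ± 0.053 (adjusted p = 3.8e-08). At 3 h the guide effect was 0.76 ± 0.037 (1.70-fold; adjusted p = 5.2e-15), and it was 0.54 on the TPM scale (0.65 relative to the median of all genes; adjusted p = 1.9e-05 by limma). At 0 h the guide effect of 0.27 ± 0.039 (adjusted p = 1.7e-06) was not called on the TPM scale, where it was 0.0073, or 0.16 relative to the median of all genes.

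Nfatc3 (ENSMUSG00000031902.10; chromosome 8, 106058840 to 106130537, plus strand) stood at 309.0 and 328.7 CPM in control-guide cells and 407.6 and 414.2 CPM with the Foxp3 guide at 0 h. Stimulated libraries stood at 101.6 and 95.5 CPM in control-guide cells and at 97.6 and 94.4 CPM with the Foxp3 guide, where the groups overlapped. Stimulation changed it by -1.69 ± 0.043 (3.23-fold lower) in control-guide cells and -2.10 ± 0.043 (4.28-fold lower) with the Foxp3 guide, and the difference was -0.405 ± 0.059 (adjusted p = 4.6e-06). The guide effect at 0 h, 0.37 ± 0.041 (adjusted p = 2.6e-08), was 0.09 with no call on the TPM scale, or 0.24 relative to the median of all genes. The guide effect at 3 h of -0.04 ± 0.043 did not pass (adjusted p = 0.45), turned to 0.0080 without control 3 h replicate 1 and to 0.03 without Foxp3-guide 3 h replicate 2, and was -0.24 and called on the TPM scale.

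Nfatc2 (ENSMUSG00000027544.16; chromosome 2, 168476410 to 168601657, minus strand) stood at 179.0 and 194.1 CPM in control-guide cells and at 163.7 and 163.1 CPM with the Foxp3 guide at 0 h. At 3 h it stood at 79.1 and 77.1 CPM and at 81.6 and 82.8 CPM, with both Foxp3-guide libraries above both controls. The guide effect at 0 h was -0.19 ± 0.039 (adjusted p = 0.00014) by TMM and -0.42 on the TPM scale (-0.27 relative to the median of all genes). That at 3 h, 0.07 ± 0.042, did not pass (adjusted p = 0.13) and was -0.11 on the TPM scale. The TCR effect was -1.26 ± 0.041 in control-guide cells and -0.99 ± 0.040 with the Foxp3 guide, so Nfatc2 fell by less with the Foxp3 guide (difference 0.27 ± 0.057, adjusted p = 0.00047).

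In the summed TPM of the 3 NFATc genes, Nfatc1 made up 20.8% ± 0.684 (SD, n = 2) in control-guide cells and 21.6% ± 0.278 with the Foxp3 guide at 0 h, and 69.1% ± 0.0921 and 78.8% ± 0.104 at 3 h. Nfatc3 made up 51.9% and 57.3% at 0 h and 18.1% and 11.9% at 3 h. The library values of the 2 guides overlapped for neither gene at 3 h. The summed level was 196.6 ± 8.86 and 189.5 ± 1.46 TPM at 0 h with the control and Foxp3 guides, and 137.1 ± 5.11 and 175.0 ± 5.45 TPM at 3 h, and the sums were not tested. A share is free of library scaling, but it compares lengths as the deposited TPM values take them.

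**Figure D3:**
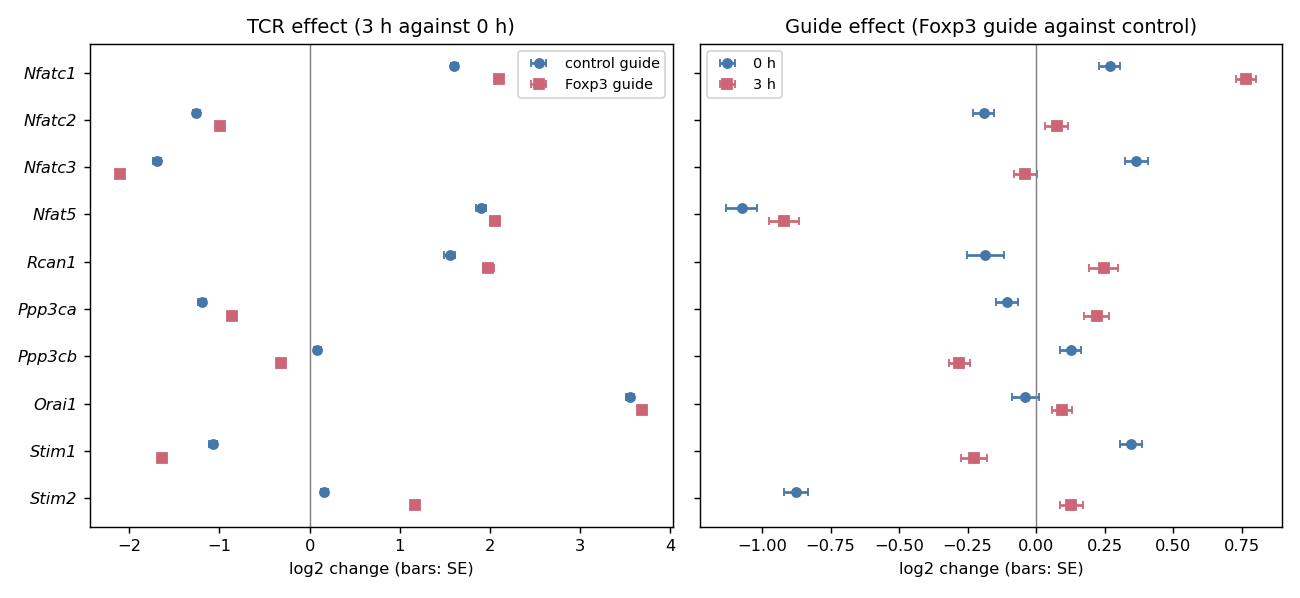
The left panel plots each gene's log2 change from 0 h to 3 h with the control guide (circles) and the Foxp3 guide (squares), and the right panel the log2 change of the Foxp3 guide against the control guide at 0 h (circles) and 3 h (squares), with SE bars. Orai1 has the largest TCR effects (3.56 and 3.69), and the guide effect of Stim2 goes from -0.88 at 0 h to 0.13 at 3 h (-0.02 on the TPM scale), while that of Nfat5 stays at -1.08 and -0.92.

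Nfat5 was the member with the largest guide effect, at both times. Nfat5 (ENSMUSG00000003847.16; chromosome 8, 107293470 to 107379517, plus strand) stood at 476.3 and 482.7 CPM in control-guide cells and at 228.7 and 226.5 CPM with the Foxp3 guide at 0 h. The stimulated libraries stood at 1916 and 1674 CPM in control-guide cells and at 989.7 and 909.0 CPM with the Foxp3 guide. All 4 Foxp3-guide libraries lay below the control-guide libraries of the same time, and stimulated Foxp3-guide cells stayed above unstimulated controls. The guide effect was -1.08 ± 0.055 at 0 h (2.11-fold lower; adjusted p = 3.0e-12) and -0.92 ± 0.055 at 3 h (1.89-fold lower; adjusted p = 2.9e-11). On the TPM scale these were -1.35 and -1.05, or -1.20 and -0.93 relative to the median of all genes. The TCR effect was 1.90 ± 0.056 (3.74-fold) in control-guide cells and 2.06 ± 0.057 (4.17-fold) with the Foxp3 guide. Their difference of 0.16 ± 0.077 did not pass (adjusted p = 0.11), but it was called with RLE (0.22) and upper-quartile scaling (0.22), with DESeq2 (0.22), and without control 3 h replicate 1 (0.25) or Foxp3-guide 3 h replicate 2 (0.28). On the TPM scale it was 0.31 and not called (adjusted p = 0.21 by limma). The stimulated replicates differed more for Nfat5 than for the other members, with an SD of 170.7 CPM over the control-guide pair. Its counts per TPM at 3 h were 0.926 and 0.884 of the unstimulated control level with the control and Foxp3 guides, inside the range from the 5th to the 95th percentile of 8197 genes (0.884 to 1.08 and 0.844 to 1.09). Those of Stim2 with the control guide at 3 h were 1.10, above that range.

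**Figure D4:**
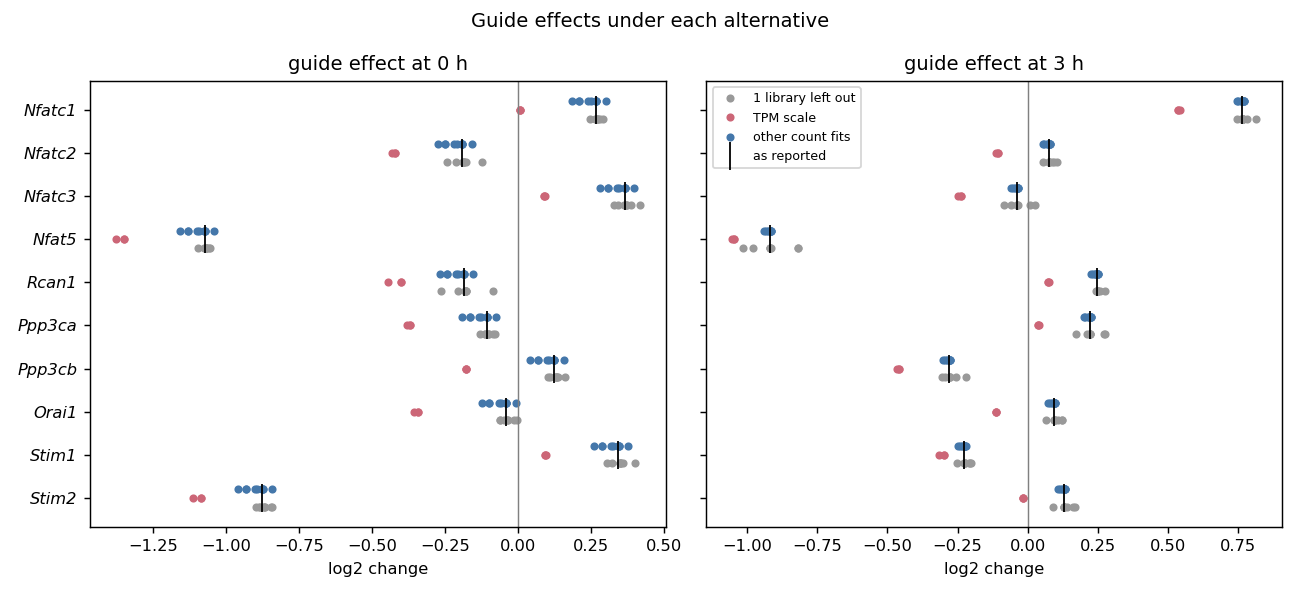
For each gene the log2 guide effect at 0 h (left) and 3 h (right) is plotted as reported (black bar) and as recomputed with 1 library left out (grey), on the TPM scale (red) and in the other count-based fits (blue). Every recomputed value stays below 0 for Nfat5 at both times and for Stim2 at 0 h, and above 0 for Nfatc1 at 3 h, whereas Ppp3cb at 0 h and Nfatc2, Nfatc3, Orai1 and Stim2 at 3 h have values on both sides of 0.

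The genes whose profile over the 8 libraries was most like that of a member, by the root mean square distance of centred log2 CPM among 8775 well-expressed genes, were found for the 3 members with the widest range of group means. For Orai1 they were Nop58, Casp4 and Nifk (distances 0.0729, 0.0755 and 0.0796). Nop58, a core protein of small nucleolar ribonucleoproteins, went from 38.3 to 454.8 CPM in control-guide cells and from 35.8 to 529.5 CPM with the Foxp3 guide. For Nfat5 they were Gbp4, Nfkbia and Gbp6 (0.0910, 0.0950 and 0.156). Nfkbia, the inhibitor of NF-kappaB, went from 183.4 to 694.2 CPM in control-guide cells and from 92.9 to 360.9 CPM with the Foxp3 guide, and Gbp4, an interferon-inducible GTPase, from 90.1 to 366.8 and from 46.1 to 204.0 CPM. For Nfatc1 they were Ckap4, Sptlc1 and Ppfibp1 (0.0432, 0.0549 and 0.0634). These are likenesses over 8 libraries in 4 groups, and nothing more was tested.

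Of the wider pathway, 44 of 48 listed genes with a row were tested, and Nfatc4, Rcan2, Homer2 and Tmem178 had too few counts. At 0 h 18 were higher with the Foxp3 guide and 16 lower (34.2% and 29.1% of all genes tested), and at 3 h 18 and 18 (30.7% and 30.8%). TCR stimulation raised 16 and lowered 24 with the control guide (40.9% and 40.9% of all genes), and raised 16 and lowered 26 with the Foxp3 guide (40.8% and 44.5%). The difference was higher for 14 and lower for 17 (17.8% and 27%). These shares of all genes are also the background for the counts of each list below, and with so few genes in a list its count is a description. Their median log2 changes were 0.02, -0.05, -0.35, -0.40 and -0.04.

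Upstream, of 7 genes for inositol trisphosphate production and store release, 2 were higher and 5 lower with the Foxp3 guide at 0 h (34.2% and 29.1% of all genes), and 3 and 4 at 3 h (30.7% and 30.8%). Itpr3, a calcium channel of the store, went from 330.1 to 74.4 CPM in control-guide cells and from 151.4 to 20.2 CPM with the Foxp3 guide, with guide effects of -1.12 ± 0.040 at 0 h and -1.89 ± 0.048 at 3 h. Itpkb, a kinase that uses up inositol trisphosphate, showed guide effects of -0.95 ± 0.042 and -1.215 ± 0.042, and its relative Itpkc rose with TCR stimulation with either guide (2.07 ± 0.056 and 2.35 ± 0.055).

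All 6 store-operated entry partners tested fell with TCR stimulation with the control guide (40.9% of all genes fell), and all 6 with the Foxp3 guide (44.5%). Among them Cracr2b had very low counts. Summed over a group's libraries, they went from 23 to 6 with the control guide and from 22 to 4 with the Foxp3 guide. Saraf, which encodes a brake on STIM1, fell from 434.8 to 90.9 CPM (-2.26 ± 0.042) and from 461.6 to 65.8 CPM (-2.81 ± 0.043), a difference of -0.55 ± 0.058 (adjusted p = 2.6e-08). Cracr2a, a calcium-binding regulator of ORAI1, fell by 2.38 ± 0.056 and 2.92 ± 0.056. At 0 h Stimate, which encodes a membrane protein that aids STIM at contact sites, was lower with the Foxp3 guide (-0.64 ± 0.068).

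Of 10 genes for calcium pumps, the mitochondrial uniporter and channels that set the membrane potential, 3 were higher and 4 lower with the Foxp3 guide at 0 h, near the 34.2% and 29.1% of all genes, and 4 and 5 at 3 h (30.7% and 30.8%). The store pump gene Atp2a2 rose by 2.16 ± 0.042 in control-guide cells and 2.77 ± 0.042 with the Foxp3 guide. Atp2b4, a plasma membrane calcium pump, fell from 245.7 to 144.4 CPM with the control guide but went from 209.9 to 290.2 CPM with the Foxp3 guide (difference 1.23 ± 0.070, adjusted p = 2.1e-11). The potassium channel gene Kcna3 was lower with the Foxp3 guide at 0 h (-0.79 ± 0.057) and rose with stimulation with both guides (1.36 ± 0.053 and 2.23 ± 0.053).

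Around calcineurin, the calmodulin genes Calm3 (0.87 ± 0.038) and Calm2 (0.70 ± 0.040) were higher with the Foxp3 guide at 0 h, and so they were at 3 h (0.68 ± 0.040 and 0.19 ± 0.041). For Ppp3cc, the third catalytic subunit gene, the TCR effect was lower with the Foxp3 guide (difference -0.73 ± 0.065). Of 6 calcineurin regulators, 2 were higher and 3 lower at 0 h (34.2% and 29.1% of all genes), and 2 and 4 at 3 h (30.7% and 30.8%). Akap5, which encodes a scaffold that binds calcineurin, had low counts, at 0.140 CPM in unstimulated and 1.05 CPM in stimulated control-guide cells (TCR effect 2.90 ± 0.43). Tbc1d10c, which encodes the calcineurin inhibitor carabin, fell with stimulation from 289.9 to 41.6 CPM (-2.80 ± 0.042) in control-guide cells and from 259.8 to 13.8 CPM (-4.23 ± 0.046) with the Foxp3 guide, and the difference was -1.43 ± 0.062 (adjusted p = 3.2e-15). Fkbp1a, the target of the calcineurin inhibitor FK506, was lower with the Foxp3 guide at 0 h (-0.40 ± 0.037), and its TCR effect was higher with that guide by 0.61 ± 0.052. Of 10 NFAT kinases and scaffolds, 6 were higher and 1 lower at 0 h by TMM (34.2% and 29.1% of all genes), and 5 and 0 at 3 h (30.7% and 30.8%). These counts depended on the scale. By mean TPM at 0 h, Dyrk2, Csnk1e, Homer3 and Nfatc2ip were higher with the Foxp3 guide. Gsk3a, Gsk3b, Dyrk1a, Csnk1a1, Csnk1d and Lrrk2 were lower, Csnk1d for instance at 86.7 against 118.1 TPM with the control guide. At 3 h Dyrk2, called higher by TMM, stood at 15.1 TPM with the Foxp3 guide and 17.2 TPM with the control guide. Lrrk2, which encodes a kinase, rose from 1.21 to 6.99 CPM with stimulation in control-guide cells (2.52 ± 0.14) and from 0.942 to 6.20 CPM with the Foxp3 guide (2.71 ± 0.13), and the casein kinase gene Csnk1e was higher with the Foxp3 guide at 3 h (0.69 ± 0.050). Nfatc2ip, which encodes an NFATc2-interacting protein, was higher at 0 h (0.97 ± 0.048), and the NFAT kinase gene Gsk3b fell with stimulation with either guide (-1.27 ± 0.047 and -1.55 ± 0.045).

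Downstream, all 17 listed NFAT target genes were tested. TCR stimulation raised 17 in control-guide cells and 16 with the Foxp3 guide, where 1 fell (40.9% and 40.8% of all genes rose), with median log2 changes of 6.90 and 7.31. With the Foxp3 guide 4 were higher and 6 lower at 0 h (median -0.10), beside 34.2% and 29.1% of all genes. At 3 h 12 were higher and 3 lower (median 1.12), beside 30.7% and 30.8%, and 8 had a higher and 2 a lower TCR effect (median 0.64), beside 17.8% and 27%. The cytokine gene Il2 went from 0.0947 to 395.4 CPM in control-guide cells and from 0.374 to 3693 CPM with the Foxp3 guide, a guide effect of 3.22 ± 0.071 at 3 h. Il4 stood at 6.63 and 199.9 CPM at 3 h with the control and Foxp3 guides (4.91 ± 0.069). Il3 had 0 counts with the control guide at 0 h and 39598 at 3 h over the group's libraries, at least 14164-fold higher against a floor of 3 counts over the group. The cytokine gene Tnf went from 4.87 to 721.2 CPM in control-guide cells and from 2.38 to 1572 CPM with the Foxp3 guide, and its TCR effect was higher with that guide by 2.155 ± 0.0996. Il2ra, the alpha chain of the IL-2 receptor, was lower with the Foxp3 guide at 0 h (-2.29 ± 0.044). These targets are listed for their known link to NFAT, whose activity and nuclear entry were not measured.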

How the data were processed

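The authors trimmed reads with Trim Galore 0.6.3, aligned them with STAR 2.7.9a to mm10 (GRCm38) and quantified genes with RSEM 1.3.1, per the submitters' processing notes; the annotation release was not given in the sources used here. The expected counts deposited by the authors were rounded to integers before modelling. The TPM values deposited by the authors, which divide by transcript length and sum to the same total in each library, served for levels between genes and as an alternative scale. Every column was matched to a library by its label (0 left over).

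From the expected counts, edgeR 4.0.16 (R 4.3.3) kept 16642 of 55665 genes with filterByExpr, scaled libraries by TMM and fitted a robust quasi-likelihood model to all 8 libraries with 1 mean per group, which left 4 residual degrees of freedom. Benjamini-Hochberg adjustment ran over the 16642 genes, with calls below 0.05. CPM values use TMM-scaled library sizes. SE is the log2 change divided by the root of F. Totals of 38729009 to 94807362 expected counts per library give every member at least 473 counts in each library. Shares within a family were taken from TPM. Counts per TPM were divided by their median over 8197 genes in each library and set relative to unstimulated control cells. Coordinates are those of GENCODE M21 and upstream sequences those of RefSeq (GRCm38.p6).

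Alternatives were scaling by RLE or upper quartile, limma-voom and limma-trend on log2(TPM+1) and log2(TPM+0.1) (limma 3.58.1), DESeq2 1.42.0, log2(TPM+1) without a gene filter, no count filter, a minimum of 1 CPM in every library, a fit to just the 4 libraries compared, a block for replicate number, a threshold of 0.01, each library left out in turn, and family shares from expected counts. A block with crossed numbers was added after seeing the data. The pipeline was tested on simulated data.

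The 10 members and all gene lists were chosen with earlier results of these data known. All members are named whatever their result. From the wider lists, the gene with the largest called change in each comparison is named, with some of those next in size, along with the genes that failed the filter and the closest profiles of the 3 members with the widest range. One result that this rule would name is not reported here.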

Additional observations from a re-analysis of the deposited data

Results flagged for a closer look

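For 8 of the 10 genes the TCR effect differed between the guides by the test of the difference itself (edgeR's quasi-likelihood test, Benjamini-Hochberg adjustment), 5 higher and 3 lower with the Foxp3 guide. Of all genes tested, 17.8% were called higher and 27% lower in that comparison. The difference, Foxp3 guide minus control guide on the log2 scale, was 1.004 for Stim2, 0.50 for Nfatc1, 0.43 for Rcan1, 0.33 for Ppp3ca and 0.27 for Nfatc2. It was -0.405 for Nfatc3, -0.41 for Ppp3cb (not called on log2(TPM+1) without a gene filter) and -0.57 for Stim1. Over all genes tested the median difference was -0.09 by TMM, and 39.7% of the genes called were higher. These counts depended on the scaling. With RLE scaling, upper-quartile scaling and DESeq2, 7 members were called higher and 3 lower. The median of all genes was then -0.03 in each, and 48.7%, 48.7% and 50.2% of the genes called were higher.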

How the results depend on the processing

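Over 1040 recomputed values of the members, 944 kept direction and side of the threshold, 52 lost their call, 21 gained one and 23 changed sign. On the TPM scale (log2(TPM+1), log2(TPM+0.1), and log2(TPM+1) without a gene filter) the guide effect of Ppp3cb at 0 h was -0.18, -0.18 and -0.18, and those at 3 h were -0.11, -0.11 and -0.11 for Nfatc2, -0.11, -0.11 and -0.11 for Orai1 and -0.018, -0.019 and -0.018 for Stim2. The TCR effects with the control guide were -0.27, -0.27 and -0.27 for Ppp3cb and -0.34, -0.34 and -0.34 for Stim2. With upper-quartile scaling these were -0.15 and -0.072, and with at least 1 CPM in all libraries the effect of Ppp3cb was -0.0055. With 1 library left out, the guide effect of Nfatc3 at 3 h ran from -0.0847 to 0.0277. Relative to the median of all genes on log2(TPM+1), the guide effects at 3 h were 0.012 for Nfatc2, 0.0044 for Orai1 and 0.0997 for Stim2. That of Ppp3cb at 0 h was -0.025, and the TCR effects with the control guide were -0.069 for Ppp3cb and -0.14 for Stim2. Apart from the shift of the median of all genes, the cause of these sign changes was not tested. On log2(TPM+1) without a gene filter 5 members were called for the guide effect at 3 h (8 as reported) and 4843 genes for the difference (7457 as reported). Requiring at least 1 CPM in all libraries tested fewer genes, and the NFAT targets called were 8 at 3 h and 10 and 10 for the TCR effects with the control and Foxp3 guide. Family shares from counts, which ignore length, were 16.4%, 63.1%, 17.2% and 74.2% for Nfatc1 (control guide at 0 h and 3 h, then Foxp3 guide), 40.3%, 21.7%, 34.5% and 28.0% for Ppp3ca, 10.5%, 80.0%, 7.03% and 72.9% for Orai1, and 56.6%, 35.7%, 75.2% and 30.2% for Stim1.

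Whether replicate numbers pair the libraries was not settled. The differences between replicates 1 and 2 correlated between groups at -0.23 to 0.29 across 9241 genes, and the highest value was that between the 3 h groups. Each group gives 1 such difference, so these values cannot decide for or against a pairing. With the replicate number as a block, 10319 genes were called at 0 h (10539 without it) and 7240 for the difference (7457 without it), and the TCR effect of Ppp3cb with the control guide, 0.08, lost its call (adjusted p = 0.065). With the numbers of the unstimulated control libraries crossed, 10607 and 7610 genes were called, and the difference of Nfat5, 0.16, passed (adjusted p = 0.037; 0.11 as reported). With 2 libraries per group, changes near 0.1 on the log2 scale are at the limit of what these data can show. Larger ones also depended on the scale. By TMM the guide effects at 0 h of Nfatc3 and Stim1 were 0.37 and 0.34, against 0.09 and 0.09 with no call on the TPM scale.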
